A study of Drosophila melanogaster with 2 samples.

Results

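The set comprised 10 genes that serve as markers of nerve cells and glia in Drosophila melanogaster, out of 13968 protein-coding genes annotated on the main chromosomes. The 6 neuronal members were elav, Csp, Nrx-1, brp, Syt1 and nSyb, and the 4 glial members were repo, moody, Gli and Gs2. They were picked by symbol with earlier results on the same peak lists in view, so which of them carried a peak is given as a description, with no test. Chromatin came from whole adult male flies of 1 transgenic line, in which the transcription factor toe (twin of eyegone) carries green fluorescent protein at its C-terminus, and an anti-GFP antibody was used to pull it down. The labels give 2 biological replicates of this 1 group, numbered 2 and 3, give the age as unknown, and do not give the promoter that drives the fusion gene. Because whole animals were used, binding in few cells and weak binding in many cells cannot be told apart, and neurons and glia were not separated from other tissues.

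toe is a Pax-like transcription factor with a homeodomain and is related to eyegone, which acts in the growth of the eye. Neurons release transmitter by fusing synaptic vesicles with the membrane at active zones, a process carried out by SNARE proteins under the control of a calcium sensor. Glia of the fly ensheath the nervous system, form its blood-brain barrier through septate junctions, and take up and recycle transmitter. 

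The deposited data were lists of regions with a signal value each, on the genome build dm6. The reproducible list held 3469 peaks, the authors' optimal set under the irreproducible discovery rate, a measure of agreement in rank between replicates. A peak of this set need not rank high in each replicate. These peaks were the 3469 strongest of the 30000 regions of the pooled list. The lists of replicate 2 and replicate 3 also held 30000 regions each, peaks and background together, and 3437 and 2467 of these had a q-value under 0.05. Signal values are the authors' own on an unstated scale, and they were compared within a list only. Ranks count from 1 for the strongest region of a list. Read depth is unknown, so signals and ranks carry no interval. A promoter peak is one whose summit lies no more than 500 bp from any annotated start site of the gene, and a gene-body peak lies between the ends of the gene but farther from its start sites.

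Sequences are shown for elav and moody, whose peaks were the strongest, for Gs2, which had the most peaks, and for Gli, whose peak had the lowest GC share. At elav and moody the whole peak is given, and at Gs2 and Gli 121 bases around the summit, from the RefSeq copy of the dm6 assembly and on the strand of the gene. Capitals mark GAGAG on either strand at elav, moody and Gs2, and at Gs2 also the word ACAGTGG, the E-box CAGCTG or the homeodomain core TAATTA. In Gli, which holds none of them, the capital marks the base of the summit.
elav, upstream peak, chrX:523337-523608, minus strand: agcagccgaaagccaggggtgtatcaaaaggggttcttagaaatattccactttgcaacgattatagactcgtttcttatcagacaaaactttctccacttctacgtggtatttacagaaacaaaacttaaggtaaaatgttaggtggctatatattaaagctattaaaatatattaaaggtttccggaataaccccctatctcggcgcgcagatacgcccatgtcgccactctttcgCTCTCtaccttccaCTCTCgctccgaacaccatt
elav, intron peak, chrX:522542-522738, minus strand: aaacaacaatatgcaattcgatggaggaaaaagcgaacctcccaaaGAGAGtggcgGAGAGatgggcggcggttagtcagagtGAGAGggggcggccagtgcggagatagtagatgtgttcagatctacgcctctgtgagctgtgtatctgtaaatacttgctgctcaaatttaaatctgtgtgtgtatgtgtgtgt
moody, upstream peak, chrX:2050158-2050413, minus strand: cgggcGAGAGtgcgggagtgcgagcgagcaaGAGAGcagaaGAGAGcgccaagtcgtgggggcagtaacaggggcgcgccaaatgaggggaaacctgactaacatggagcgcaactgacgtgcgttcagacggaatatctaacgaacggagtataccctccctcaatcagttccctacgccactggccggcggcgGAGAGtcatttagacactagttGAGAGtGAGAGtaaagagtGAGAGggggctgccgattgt
Gs2, strongest peak, chrX:11423319-11423439, plus strand: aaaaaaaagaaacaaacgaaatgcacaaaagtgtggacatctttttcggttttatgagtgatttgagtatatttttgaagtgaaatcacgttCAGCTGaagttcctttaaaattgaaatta
Gs2, promoter peak, chrX:11423551-11423671, plus strand: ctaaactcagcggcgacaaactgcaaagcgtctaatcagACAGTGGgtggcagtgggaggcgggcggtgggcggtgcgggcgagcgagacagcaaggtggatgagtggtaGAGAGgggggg
Gs2, intron peak, chrX:11426383-11426503, plus strand: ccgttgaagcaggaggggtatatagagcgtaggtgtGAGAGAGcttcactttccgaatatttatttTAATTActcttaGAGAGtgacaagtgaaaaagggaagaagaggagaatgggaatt
Gli, promoter peak, chr2L:15761996-15762116, minus strand: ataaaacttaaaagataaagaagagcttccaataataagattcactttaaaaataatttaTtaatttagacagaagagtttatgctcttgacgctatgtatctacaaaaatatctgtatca
Sequences at Csp and Nrx-1 are not printed because their summits lie in 5′ UTRs, and the intron peak of Gs2 farthest downstream is left out because it holds no searched word within 60 bp of its summit.

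Of the 10 members, 6 carried a reproducible promoter peak, against 19.3% of all protein-coding genes. They were 3 of the 6 neuronal members (elav, Csp and Nrx-1) and 3 of the 4 glial members (moody, Gli and Gs2). brp, Syt1, nSyb and repo carried none. The members were chosen with this outcome known, so nothing is read from the difference from 19.3%. Among protein-coding genes the share was 14.6% for those with 1 start site and 29.9% for those with 2 or 3. repo has 1 start site and the other 9 members have 2 or 3. It was 27.3% for genes between 3411 and 37801 bp long, the range of the members.

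**Figure D1:**
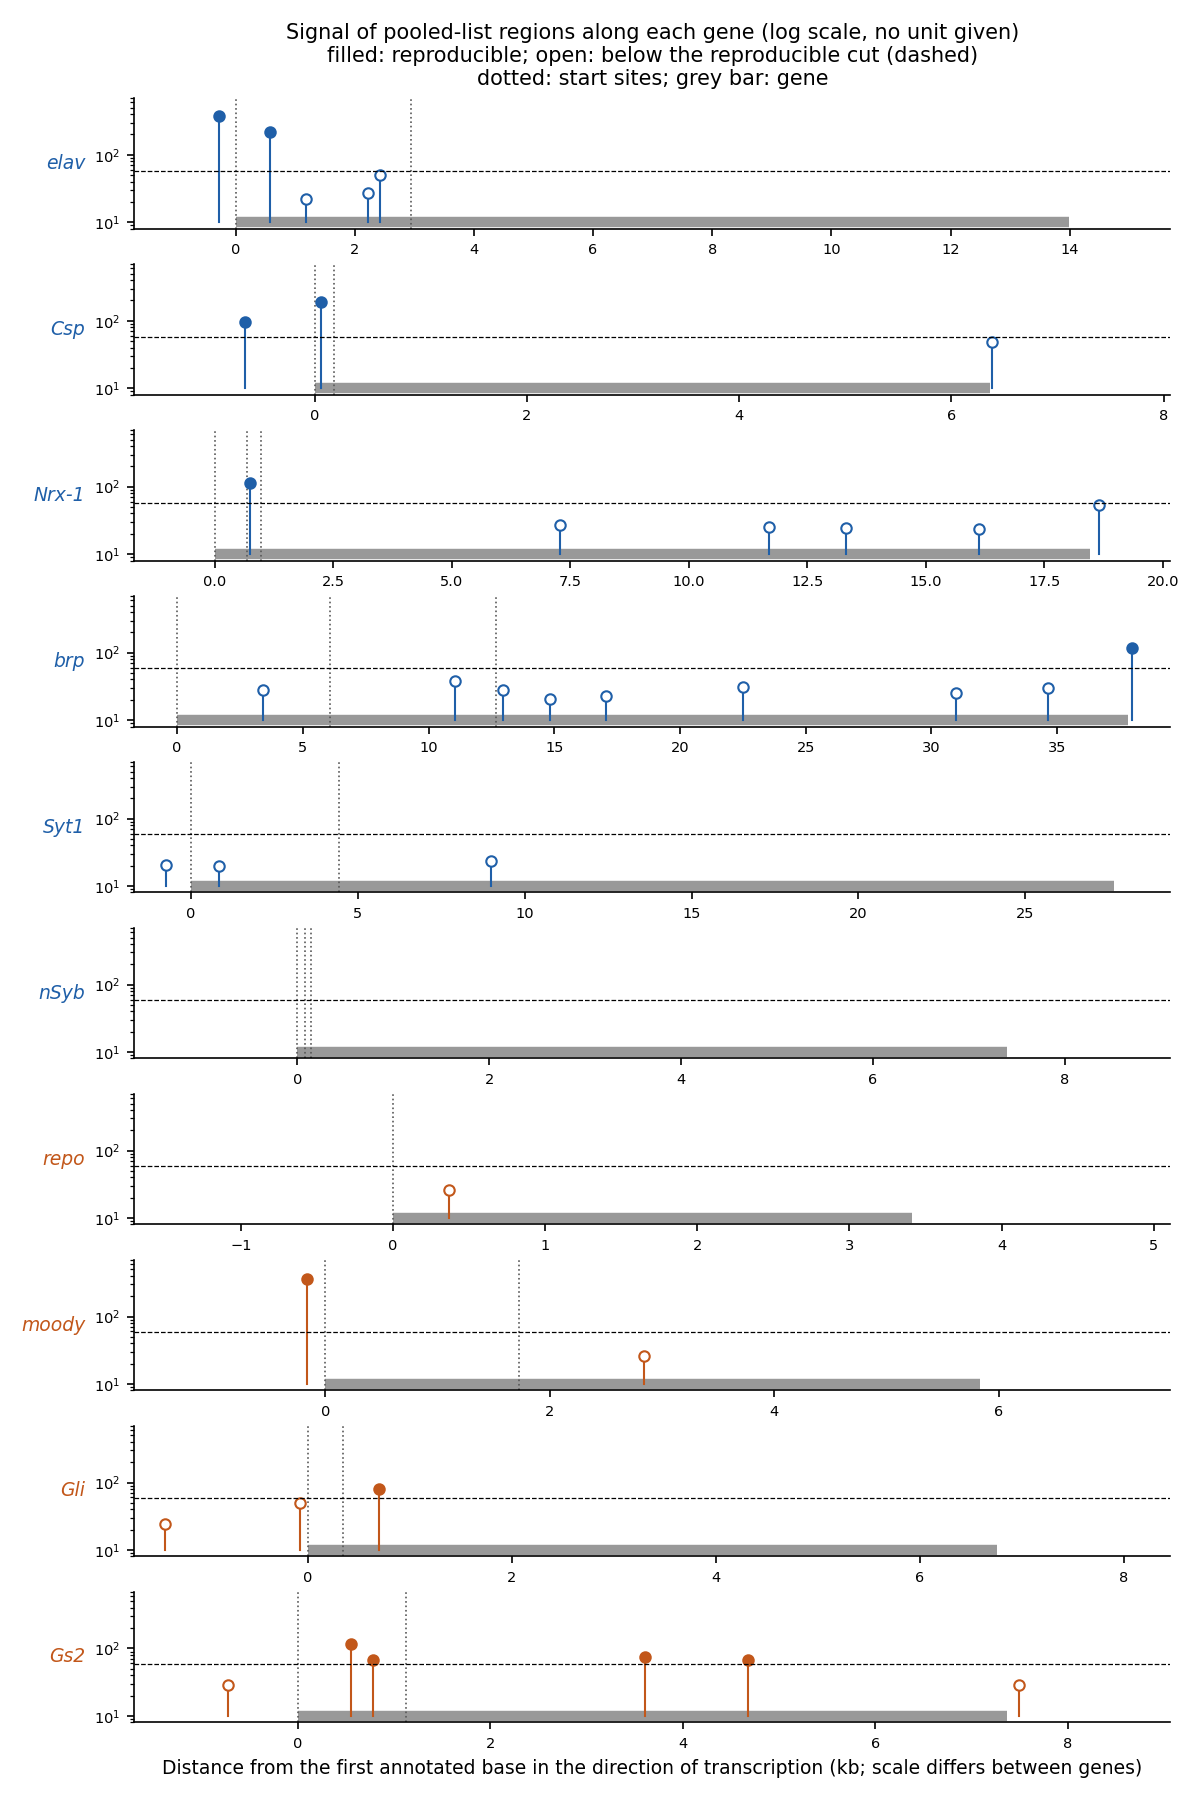
Each panel plots the signal (log scale) of the pooled-list regions along 1 gene and 1.5 kb to either side, against distance in kb from the first annotated base in the direction of transcription. Filled points are reproducible peaks and open points lie below the weakest reproducible signal of 58.2 (dashed line); elav and moody are highest just upstream of their first start site, Gs2 has 4 filled points, and nSyb has no point at all.

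elav encodes an RNA-binding protein of neuronal nuclei and is the standard pan-neuronal marker. The gene lies on the minus strand of the X chromosome from 509235 to 523226. Its promoter peak, from 523337 to 523608, had its summit 283 bp upstream of the outer start site. Its signal was 380 in the pooled list, 211 in replicate 2 and 172 in replicate 3. That placed it at rank 196 of the pooled list, 235 of replicate 2 and 174 of replicate 3. lncRNA:enrr also has a start site within 500 bp of the summit. The summit lies as well in an intron of arg, a gene of the opposite strand that spans elav, so the peak cannot be assigned to elav alone.

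Another peak lay on the other side of the outer start site, inside elav and also inside arg and lncRNA:enrr. It too cannot be assigned to elav alone. Its summit lay 580 bp downstream, in an intron, 863 bp from the summit of the first, and its signal was 219 in the pooled list (rank 604). It ranked 718 in replicate 2, with a signal of 120, and 540 in replicate 3, with a signal of 100. Both replicates therefore held this pair of regions with the upstream one stronger. The inner start site, at 520285, had no summit within 500 bp in any list. The closest pooled region, 511 bp upstream of it, had a signal of 49.5 (rank 4246), which is below the reproducible cut.

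Csp encodes the cysteine string protein, a chaperone of synaptic vesicles. It spans 22267382 to 22273745 on the plus strand of chromosome 3L. Its peak, from 22267228 to 22267647, had its summit 56 bp downstream of the outer start site, in the 5′ UTR. The signal was 189 in the pooled list (rank 773), 128 in replicate 2 (rank 651) and 61.9 in replicate 3 (rank 1208). The region was thus placed higher in replicate 2 than in replicate 3. A separate peak 717 bp away, upstream of Csp, lay at the promoter of the neighbour CG11523 and had a signal of 96.2 (rank 1881). No region of any list had its summit in the body of Csp beyond the promoter.

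Nrx-1 encodes neurexin, a presynaptic adhesion protein that binds neuroligins across the synaptic cleft. The gene lies on the plus strand of chromosome 3R from 22468512 to 22486969. Of its 3 start sites the middle one, at 22469181, was nearest to the summit, which lay 80 bp downstream in the 5′ UTR of the peak from 22469051 to 22469470. The signal was 113 in the pooled list (rank 1530), 64.7 in replicate 2 (rank 1713) and 46.1 in replicate 3 (rank 1867). The replicates ranked it alike, and no other gene had a start site within 500 bp of the summit. Pooled regions elsewhere in the gene numbered 4, and the strongest of them had a signal of 26.6 (rank 14110).

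brp, Syt1 and nSyb, which encode the active zone scaffold Bruchpilot, the calcium sensor of vesicle fusion and the neuronal vesicle SNARE, had no reproducible peak at a promoter or in the gene. At brp (2R, 9503765 to 9541565) the strongest promoter region had a signal of 27.6 in the pooled list (rank 12921). It was at a different start site in each replicate, with signals of 15.9 in replicate 2 (rank 13927) and 21.1 in replicate 3 (rank 6453). brp is the longest member, at 37.8 kb, and held 7 pooled regions in its body, none stronger than 37.6 (rank 6350). A reproducible peak from 9541526 to 9541945 overlapped the 3′ end of brp and had its summit 171 bp beyond it, with a signal of 117 (rank 1455), 71.1 in replicate 2 (rank 1514) and 47.4 in replicate 3 (rank 1790). No annotated start site lay within 500 bp of that summit.

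At Syt1 (2L, 2772327 to 2799979) no pooled region lay at either start site. Replicate 2 had a region at the inner start site (signal 16.6, rank 12484), and replicate 3 had one at the outer start site (signal 12.5, rank 23461), so the replicates did not share it. nSyb (3L, 1630348 to 1637752) had no region of any of the 4 lists at its promoters or in its body. It was the only member of which this was true, as it was for 31.2% of protein-coding genes. The distance from a start site to the closest reproducible summit was 1792 bp at nSyb, 8280 bp at Syt1 and 25285 bp at brp.

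moody encodes a G protein-coupled receptor of the surface glia that is needed for the blood-brain barrier. On the X chromosome it covers 2044292 to 2050120, on the minus strand. Its peak, from 2050158 to 2050413, had its summit 161 bp upstream of the outer start site. The signal was 355 in the pooled list (rank 232), 184 in replicate 2 (rank 316) and 175 in replicate 3 (rank 166). No other gene had a start site within 500 bp of the summit, which lies in an intron of the opposite-strand gene CG4313. Both replicates placed the region among their strongest, as they did that of elav.

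Gli encodes gliotactin, a transmembrane protein of the septate junctions where several cells meet. Its coordinates are 15756002 to 15762758 on chromosome 2L, minus strand. Its reproducible peak, from 15761846 to 15762265, had its summit in an intron 352 bp downstream of the inner start site. The signal was 80.8 in the pooled list (rank 2339), 35.6 in replicate 2 (rank 3546) and 43.0 in replicate 3 (rank 2035). In replicate 2 alone the region would miss a cut at the 3469 strongest. A region at the outer start site, 74 bp upstream, had a signal of 49.7 (rank 4208), below the reproducible cut of 58.2. It was present in both replicates, at ranks 4361 and 6229.

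Gs2 encodes a glutamine synthetase, the enzyme with which glia turn glutamate into glutamine. The gene lies on the plus strand of the X chromosome from 11422832 to 11430197, and it was the member with the most reproducible peaks, 4 in all. The strongest, from 11423169 to 11423588, had a signal of 118 (rank 1432) and its summit 547 bp downstream of the outer start site. The next, from 11423401 to 11423820, overlaps it by 188 bp and had a signal of 67.8 (rank 2905). Its summit lay 346 bp upstream of the inner start site, and it is the peak by which Gs2 counts as carrying a promoter peak. The remaining pair lay 2486 bp and 3551 bp downstream of the inner start site, in an intron, with signals of 75.8 (rank 2537) and 68.3 (rank 2880).

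The start sites of Gs2 are 1125 bp apart, and the regions between them were placed differently in the replicates. The strongest region of replicate 2 had a signal of 68.4 (rank 1589) with its summit 476 bp from the inner start site. The strongest of replicate 3 had a signal of 51.2 (rank 1582) with its summit 556 bp from the outer start site. These summits lay 93 bp apart and the ranks were close. Replicate 2 held another region 277 bp upstream of the inner start site (signal 36.5, rank 3445), and weaker ones 173 bp (rank 11734) and 390 bp (rank 29866) upstream of the outer start site. Replicate 3 had no region within 500 bp of either start site.

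repo encodes the homeodomain transcription factor found in nearly all glia and is the standard glial marker. It is the shortest member, from 18236192 to 18239602 on the plus strand of chromosome 3R. Its only pooled region had its summit in a coding exon 367 bp downstream of the start site, with a signal of 25.6 (rank 15603). Replicate 3 had a region there with a signal of 11.9 (rank 26374), and replicate 2 had none. The closest reproducible summit was 6240 bp away from its start site.

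**Figure D2:**
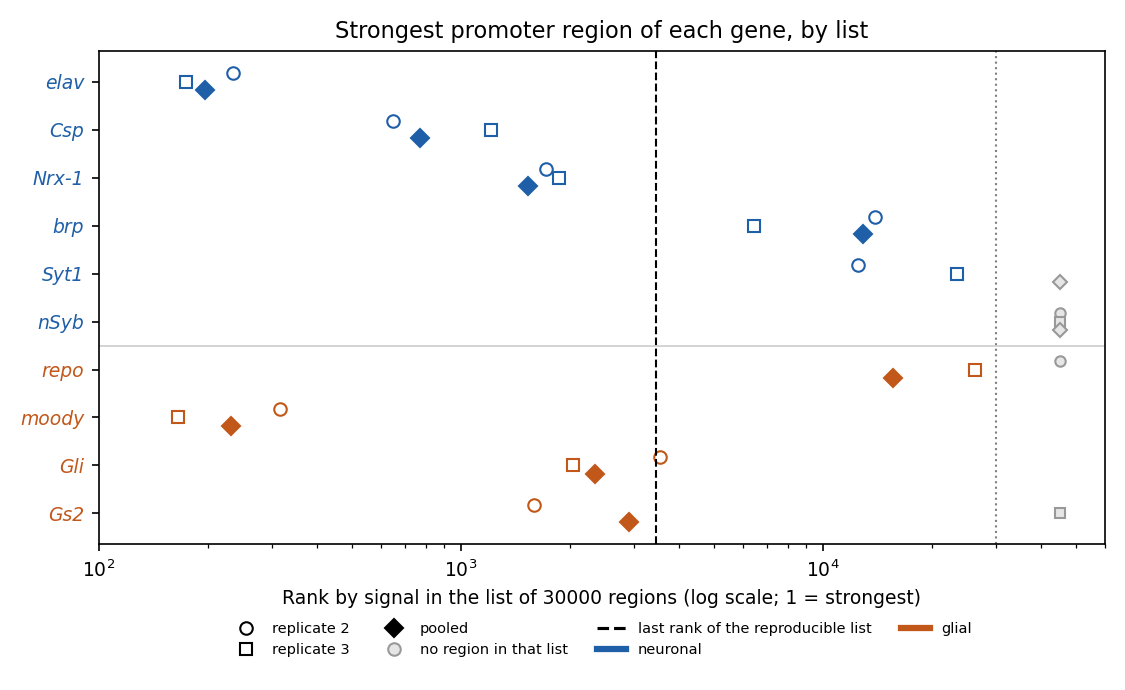
Each row plots the rank (log scale, 1 is the strongest of 30000 regions) of the strongest promoter region of 1 gene in replicate 2 (circles), replicate 3 (squares) and the pooled list (diamonds), with grey symbols at the right where a list had no such region. The dashed line is rank 3469, the end of the reproducible list; elav, Csp, Nrx-1 and moody lie to its left in all 3 lists, Gli and Gs2 in part, and brp, Syt1, nSyb and repo in none.

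Regions of any strength did not separate the members in the same way. Of the 10 members, 8 had a promoter region in the pooled list, against 41.9% of protein-coding genes. In replicate 2 also 8 had one (45.1% of protein-coding genes), and in replicate 3 again 8 (44.2%), but the genes were not the same, since replicate 2 lacked repo and replicate 3 lacked Gs2. Promoter regions of the replicates overlapped by at least 1 bp at 6 members (elav, Csp, Nrx-1, brp, moody and Gli), against 31.2% of protein-coding genes. Among the 3469 strongest regions of each replicate, 5 members had a promoter region in replicate 2 (21.1% of protein-coding genes) and 5 in replicate 3 (19.7%). elav, Csp, Nrx-1 and moody were in both, Gs2 was in replicate 2 and Gli in replicate 3.

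By signal, the order of the promoter peaks was elav, moody, Csp, Nrx-1, Gli and Gs2. elav and moody, the highest neuronal and the highest glial member, were not separated by the replicates, since elav ranked above moody in replicate 2 and below it in replicate 3. Csp ranked above Nrx-1, and Nrx-1 above Gli, in both replicates. Gs2 ranked above Gli and Nrx-1 in replicate 2 and had no promoter region in replicate 3. The median signal was 189 over the 3 neuronal members with a promoter peak and 80.8 over the 3 glial ones, beside 135 over all 2701 protein-coding genes with one. The neuronal values (113 to 380) and the glial values (67.8 to 355) overlapped.

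Placed among those 2701 genes, elav had a higher signal than 90.7% of them and moody than 88.9%. Csp stood above 65.7%, Nrx-1 above 40.1%, Gli above 20.8% and Gs2 above 9.55%. The 6 members thus spanned most of the range, with 1 glial member near each end. The genes most like the members were sought by distance between log2 signals in replicate 2, replicate 3 and the pooled list, over 2634 genes. They were IntS6 for elav (distance 0.02), Atg9 for Csp (0.06), Targ3 for Nrx-1 (0.04), sea for moody (0.09) and ETHR for Gli (0.05). Gs2 had no value in replicate 3 and was not compared.

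**Figure D3:**
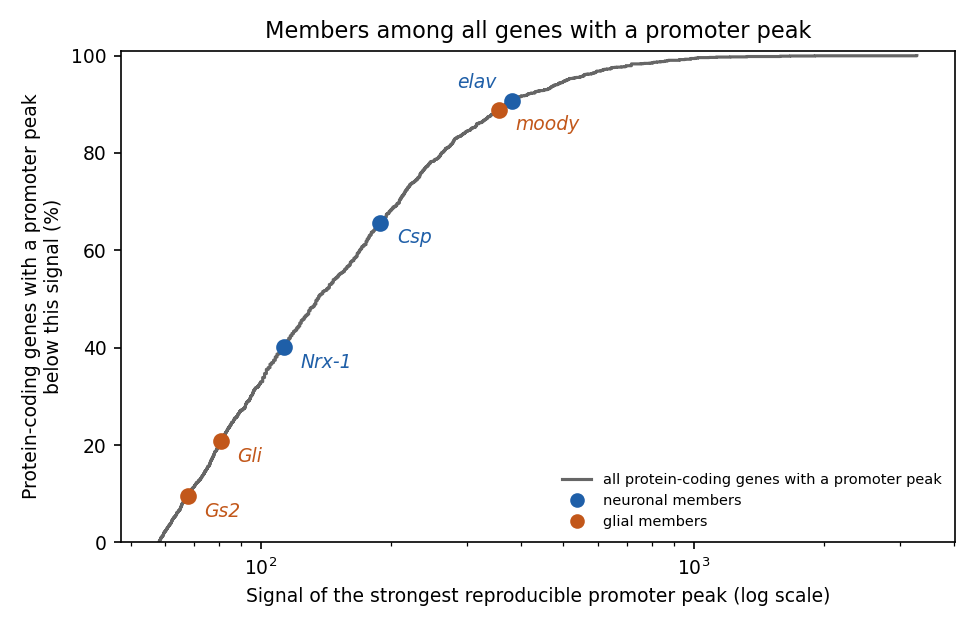
The grey curve gives the percentage of the 2701 protein-coding genes with a promoter peak whose signal is below the value on the x axis (log scale), and the points are the 6 members. elav (380) and moody (355) lie near the top, and Gs2 (67.8) near the bottom of the curve.

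Beyond promoters, 2 members held a reproducible peak in the gene body, elav and Gs2, against 5.33% of protein-coding genes and 12.1% of those in the length range of the members. elav held 1 such peak and Gs2 3, and all 4 summits lay in introns. The summit in elav also lies in arg and lncRNA:enrr. The 6 neuronal genes span 112 kb in all and held 0.0895 reproducible gene-body peaks per 10 kb, while the 4 glial genes span 23.4 kb and held 1.28. The glial value comes from Gs2 alone. With weak regions included, 6 members had a gene-body region in the pooled list, against 27.7% of protein-coding genes, and the densities were 1.52 per 10 kb in the neuronal and 1.71 in the glial genes.

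The peaks of the members differed in sequence. The GC share of the 201 bp around the summit ran from 25.4% at Gli to 63.7% at the promoter peak of Gs2, around a median of 36.8% over all reproducible peaks. The word GAGAG, the core of GAGA repeats, was found in 5 of the 10 member windows, at the intron peak of elav, at moody and at 3 of the 4 peaks of Gs2. It occurred in 24.0% of all reproducible peak windows and in 22.5% of windows of the same length at the outer start sites of protein-coding genes. The upstream elav peak holds 2 copies, both outside that window, and the whole moody peak holds 7. Of the 454 reproducible peaks up to 300 bp wide, 23.8% hold at least 1 copy and 0.881% hold 7 or more. As many copies as the upstream elav peak (2) are held by 8.15%, and as many as the intron elav peak (3) by 4.63%. Peaks this narrow were 13.1% of all reproducible peaks and 59.0% of the 346 with the highest signal.

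The other words searched were each in 2 or fewer of the 10 member windows. TATCGATA, the DNA replication-related element, was at none of the 10 summits, and was at 5.04% of all reproducible summits and 7.83% of start sites. The paired domain core GTCACGC was also at none, and at 0.663% and 1.07%. CGATA, which is part of TATCGATA, was at Csp only (35.3% of peaks, 39.3% of start sites). The homeodomain core TAATTA was at 1 intron peak of Gs2 (17.0% and 9.94%), and ACAGTGG at the promoter peak of Gs2 (7.38% and 2.11%). The E-box CAGCTG was at the overlapping pair of Gs2 peaks (10.8% and 13.8%). Words were searched on both strands, and a match or its absence describes only these letters in these windows.

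Wider lists of neuronal and glial genes were counted in the same way. They were compiled from general knowledge, with earlier results of these data known. Of 52 neuronal genes, 5 had a reproducible promoter peak (9.62%), and without the members 2 of 46 did (4.35%), beside 19.3% of all protein-coding genes. Of 29 glial genes, 9 had one (31.0%), and without the members 6 of 25 did (24.0%). Among reproducible peaks with a q-value under 0.05, the neuronal list had 5 and the glial list 7, beside 17.8% of all protein-coding genes. Under the alternatives described below, the count ran from 3 to 7 in the neuronal list and from 3 to 11 in the glial list. Over the same alternatives the count of all protein-coding genes ran from 1775 (12.7%) to 3040 (21.8%). No test was made of these shares. The median number of start sites was 2.00 in the neuronal list and 1.00 in the glial list.

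In the neuronal list, none of the 10 SNARE and fusion genes had a promoter peak, a count that allows a share of up to 30.0% when taken as 3 counts of the total. None of the 7 axon and excitability genes had one either (up to 42.9%). Both limits lie above the 19.3% of all protein-coding genes. The genes other than members with a peak were Liprin-alpha, an active zone scaffold (signal 124, a peak also near homer), and Ten-m, a teneurin adhesion protein (93.9). Gene-body peaks were found in 4 of the 52 genes (7.69%), beside 5.33% of all protein-coding genes, with gene length not matched. Besides elav they lay in Rbp9, an ELAV-family RNA-binding protein (248), in Syn, which encodes synapsin (78.1), and in EndoA, which encodes endophilin (59.8). The rule leaves out only a gene's own start sites, so a gene-body peak can lie at the promoter of another gene. The median signal of the 5 promoter peaks was 124, beside 135 for all protein-coding genes with one.

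In the glial list, 5 of 11 genes of the blood-brain barrier and septate junctions had a promoter peak, 3 of 9 without the members. Of the specification genes 2 of 6 did, and 2 of 5 without repo. The share of all protein-coding genes was 19.3%, and with so few genes no subgroup pattern is read from these counts. Beside moody and Gli, the barrier and junction genes with a peak were Tret1-1, cora and Nrg. Tret1-1 is a trehalose transporter (111), cora a septate junction protein also used in epithelia (69.4), and Nrg the adhesion molecule neuroglian (59.7). Among specification genes, ttk (151) and pnt (61.0) carried a peak and gcm, gcm2, repo and loco did not. The peaks of pnt (rank 3275) and Nrg (rank 3360) were close to the weakest reproducible signal of 58.2. They ranked beyond the 3011 peaks with a q-value under 0.05. In replicate 2 Nrg ranked 7924, and in replicate 3 it ranked 2620. The engulfment receptor gene drpr carried one (79.5). Of 8 genes of transmitter uptake and recycling, 1 had a promoter peak, Gs2. The median signal of the 9 peaks was 79.5. Gene-body peaks lay in 5 of the 29 genes (17.2%), beside 5.33% of all protein-coding genes, with gene length not matched. They were ttk (87.3), nrv2, a sodium pump subunit gene (78.4), Nrg (74.7), pnt (68.9) and Gs2. ttk, pnt, Nrg and cora act in many tissues besides glia, so the list is not specific to glia.

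Replicate by replicate, the neuronal list had 6 of 52 genes with a promoter region among the 3469 strongest in replicate 2 and 6 in replicate 3. Both are 11.5%, beside 21.1% of protein-coding genes in replicate 2 and 19.7% in replicate 3. The glial list had 6 of 29 in replicate 2 (20.7%) and 10 in replicate 3 (34.5%), so its share was close to that of all protein-coding genes in replicate 2. Short lists of genes taken as markers of muscle, testis and midgut had 0 of 8 genes each with a promoter peak. This allows shares of up to 37.5%, beside 19.3% of all protein-coding genes. These lists, including pdm3 in that of the midgut, were not checked for specificity to the tissue. A gene-body peak was found in 1 of the 8 testis genes, the germline gene vas (78.1), and in none of the muscle and midgut genes. The share of all protein-coding genes with a gene-body peak was 5.33%.

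**Figure D4:**
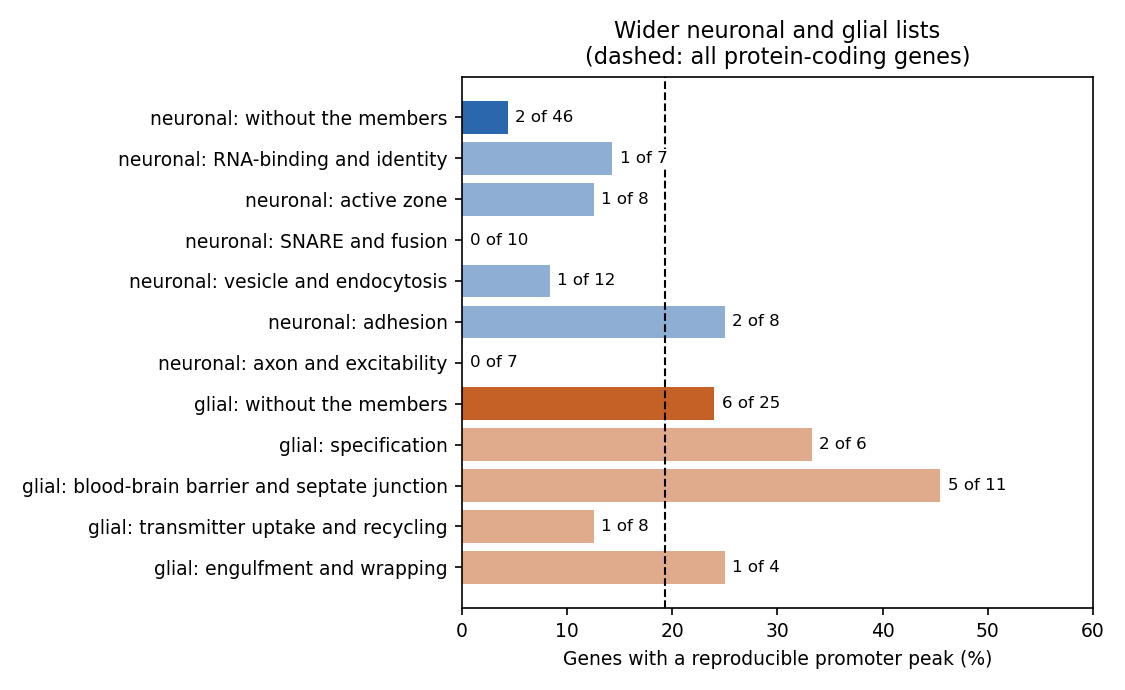
Bars give the percentage of genes with a reproducible promoter peak in the wider lists without the members (dark) and in their subgroups with the members (pale), with counts beside each bar. The dashed line marks the 19.3% of all protein-coding genes; the neuronal list without the members reaches 4.35% and the glial list without the members 24.0%.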

How the data were processed

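Binding was measured by chromatin immunoprecipitation and sequencing in 2 biological replicates of whole adult males. Per the file notes, the authors derived regions from the alignments of each replicate and of both together, and an optimal peak set from these lists by the irreproducible discovery rate. Whether a control entered the calls is not recorded there. No source used here names the aligner or the peak caller. The signal is the authors' deposited value per region. The −log10 q-value was taken from the deposited lists by the narrowPeak column order, since they have no header, and was used only with a threshold of 0.05. Lists on the build dm3 were not used here, and the control named in the labels was not analysed here. Regions with equal coordinates in the replicate lists numbered 0.

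Gene models were those of Ensembl release 115 (BDGP 6.54), leaving out transposable elements, and sequence was read from RefSeq's copy of dm6. All 10 members had the same ends in RefSeq. The promoter and gene-body rules were run on simulated summits placed by the same distances. This checks the code only, not which gene a summit belongs to where genes overlap. Words were searched in 201 bp windows on both strands. Python 3.11.15 was used.

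The members and lists were chosen with earlier results of these data known, and with 1 group no test was made. The rule named all members, the gene nearest in log2 signal to each member with a promoter peak in every list, listed genes with a promoter peak, and genes sharing or overlapping a member's peak. Listed genes with a gene-body peak only, listed genes without a peak and neighbours were named after their values were seen. 1 listed symbol matched no gene. Without molecular identifiers or read counts, depth is unknown, and counts of 0 carry limits for counting error only. Alternatives were other windows, stricter lists, overlap of the peak rather than its summit, coding transcripts, and each replicate alone.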

Additional observations from a re-analysis of the deposited data

How the results depend on the processing

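Csp, Nrx-1 and moody carried a promoter peak under all 9 alternatives run for promoter peaks, elav under 8 (not with the 200 bp window), and Gli and Gs2 under 6 each. brp, Syt1, nSyb and repo carried none under any of the 9. The share of all protein-coding genes with a promoter peak moved too, from 12.7% to 21.8% over these alternatives, beside 19.3% in the main setting. With the 200 bp window, 3 members (1 of them glial) and 3 genes of the neuronal list had a promoter peak, beside 14.4% of protein-coding genes. Gene bodies of glial members then held 5 peaks. With the 1000 bp window, 1 member had a gene-body peak and neuronal members held 0. Among the 1734 strongest reproducible peaks, 1 glial member, 3 genes of the glial list and 1775 protein-coding genes (12.7%) had a promoter peak. In this setting 1 peak lay in a glial gene body. Leaving out a replicate gave 1 to 2 members with a gene-body peak and 0 to 3 such peaks in glial members, the lower values in each case without replicate 3, where the Gs2 summits inside the 3469 strongest counted as promoter and those farther downstream ranked below. Of 73 values recomputed for counts, 61 stayed within 1.5 times the value reported. Regions of the pooled list with a q-value under 0.05 are the same 3011 regions as the reproducible peaks under that threshold. Their counts had to be equal, and 1 of the 9 alternatives only repeats another. Start sites of coding transcripts gave the same members and the same 2701 genes as all start sites.

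Ranks of single members moved by more than the SD between replicates in 6 of the 22 recomputations where both replicates gave a rank. Without 1 replicate, the rank is that of the other, and the SD comes from these same 2 ranks. The rest of the 22 changed the window, which altered the rank only at Gli. The count of 6 therefore does not measure how stable the ranks are. A further 4 recomputations, for repo and Gs2, had no such spread, and 3 of them gave another rank. Members counted as overlapping between replicates went from 6 to 5 when 50% of both regions had to overlap, brp being lost. No paired analysis was possible because there is 1 group. Read depth is unknown, so weak and absent binding at nSyb, Syt1, brp and repo cannot be told apart.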

Other observations

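Of 11 protein-coding neighbours within 3000 bp of the 4 members without a promoter peak, 8 had one. Of 18 neighbours of the other 6 members, 9 did. The share of all protein-coding genes was 19.3%, and the share among genes that lie close to other genes was not counted. Neighbours that share 1 peak, such as Mettl2 with Bgb and HINT1 with colt, were each counted. At nSyb, the promoter shared by Mettl2 and Bgb, which encodes Big brother, had a signal of 285 (rank 358). Mettl2 lies 190 bp from nSyb. Near Syt1, the promoter shared by HINT1 and colt, a mitochondrial carrier gene, had a signal of 216 (rank 619). The gene that follows brp, CG1888, lies 382 bp beyond its 3′ end and had a promoter peak with a signal of 790 (rank 35). CG7156, which overlaps the 3′ end of repo on the other strand, had a promoter peak with a signal of 61.2 (rank 3261). Wnt2 beside brp, CG15399 beside Syt1 and GC beside nSyb had none. All neighbours named here were chosen after their values were seen.

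Beside elav, svr, a carboxypeptidase gene, had a promoter peak of 152 (rank 1056), and beside moody, usp, a nuclear receptor gene, one of 147 (rank 1108) shared with CG4313. CCT1, a chaperonin subunit gene near Nrx-1, had one at rank 1782. Around Csp, Srpk79D, a kinase known to act on Bruchpilot in axons, had a promoter peak of 88.1 (rank 2097) and Ddx1, an RNA helicase gene, one of 136 (rank 1194). Beside Nrx-1, Pfdn5, a prefoldin subunit gene, had a promoter region of 53.8 (rank 3812), below the reproducible cut. Evi5, 326 bp from Gs2, had a promoter peak of 73.8 (rank 2619), and Mtr4, 102 bp from Gli, had a region of 24.0 (rank 18557).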
